A study of Mus musculus with 4 samples.

Results

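Lymphocytes are drawn into tissue, and kept alive there, by a small set of secreted and membrane-bound signals. This account follows 10 genes of that set, chosen by name: the chemokine genes Cxcl13, Ccl19 and Cxcl12, the receptor genes Cxcr5, Ccr7 and Cxcr4, the survival factor genes Tnfsf13b (BAFF) and Tnfsf13 (APRIL), the BAFF receptor gene Tnfrsf13c, and Ltb (lymphotoxin beta). The 10 genes were found in all 4 libraries, among 29814 symbols that the libraries have in common. The question was which cell types carry each signal and each receptor in the B cell rich KPCA.B tumor, and how those cells differ from the same types in the other libraries.

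The libraries were droplet single-cell RNA libraries of omental tumors grown in C57BL6J mice from KPCA.B, KPCA.A and KPCA.C, syngeneic cancer cell lines whose cells the labels call fallopian tube epithelial cells, and of KPCA ascites. Each tumor library pooled 4 tumors, so mice cannot be told apart within it, and the age is given as 8 weeks for the tumors and 9 weeks for the ascites. The alleles behind the names KPCA.B, KPCA.A and KPCA.C are not spelled out in the labels, nor is the line behind the ascites. Every group was 1 library, so no difference below has a replicate check: no test was run, and the 95% intervals given throughout reflect counting error alone.

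After filtering, 2533 cells of KPCA.B, 2592 of KPCA.A, 3021 of KPCA.C and 2853 of ascites were used, with a median per cell of 7947, 7899, 14646 and 2076 UMIs, the molecular barcodes that count captured transcripts. The ascites library stood apart: it was the shallowest, used another gene annotation and had another set of barcodes. Between 1 and 32 barcodes of a library also occurred in another library. The share of barcodes over the mitochondrial limit was 22.5% in KPCA.B, 53.1% in KPCA.A and 24.3% in KPCA.C. Levels are given in CPM, counts per 1e6, that is UMIs of a gene per 1e6 UMIs of a cell class.

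Cell classes were named from marker genes that include none of the 10 genes, and clustering left the 10 genes out. The name B cell-like came from a list of 16 genes, Cd79a and Ms4a1 among them, so these genes are not a separate check of it. They summed to 17219 CPM in B cell-like cells of KPCA.B against 14712 CPM in those of KPCA.C. KPCA.B held 586 B cell-like cells, 23.1% of its cells (21.5 to 24.8%). KPCA.A held 15 (0.579%) and KPCA.C 68 (2.25%, 1.75 to 2.84%). In the ascites 0 of 2853 cells were B cell-like, which allows a share of up to 0.105%. The same tumor also held 306 plasma cell-like cells (12.1%), 194 T cell-like cells and 75 NK cell-like cells, while fibroblast-like cells were 116 (4.58%) in KPCA.B, 224 (8.64%) in KPCA.A and 155 (5.13%) in KPCA.C. In dissociated tissue, a class share depends on which cells survived dissociation as well as on the tissue.

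By way of background, CXCL13 is the chemokine that draws CXCR5-bearing B cells into follicles, and CCL19 draws CCR7-bearing lymphocytes and dendritic cells into the T cell area. CXCL12 is the ligand of CXCR4 and holds lymphocytes, plasma cells and many myeloid cells in marrow and stroma. BAFF keeps mature B cells alive through its receptor, APRIL acts mainly on plasma cells through other receptors, and lymphotoxin from lymphocytes acts on stromal cells through Ltbr, whose non-canonical NF-kB pathway is known to induce CXCL13 and other lymphoid chemokines. The omentum is a fatty fold of the peritoneum that carries milky spots, small lymphoid clusters covered by mesothelium.

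Upstream sequences are shown for the stromal chemokines Cxcl13 and Cxcl12, since they differ in where and how they vary below, and for Cxcr4, the receptor that differed most within classes. Sequences are RefSeq's for GRCm38.p6, the 250 bases before the gene's start, given 5′ to 3′ on the gene's strand. RefSeq entries were matched for 8 of the 10 genes, and Cxcr5 and Ccr7 were not matched. The Cxcl13 window is chr5:95956689-95956938 on the plus strand, the Cxcl12 window is chr6:117168285-117168534 on the plus strand, and the Cxcr4 window is chr1:128592300-128592549 on the minus strand. Capitals mark matches, on either strand, to a general NF-kB form, GGGNNNNNCC, or to TATAAA.
Cxcl13: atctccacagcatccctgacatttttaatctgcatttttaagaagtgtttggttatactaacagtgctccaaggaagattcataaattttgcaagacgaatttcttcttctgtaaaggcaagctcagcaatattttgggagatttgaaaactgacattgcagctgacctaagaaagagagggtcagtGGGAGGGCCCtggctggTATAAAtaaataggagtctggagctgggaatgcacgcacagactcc
Cxcl12: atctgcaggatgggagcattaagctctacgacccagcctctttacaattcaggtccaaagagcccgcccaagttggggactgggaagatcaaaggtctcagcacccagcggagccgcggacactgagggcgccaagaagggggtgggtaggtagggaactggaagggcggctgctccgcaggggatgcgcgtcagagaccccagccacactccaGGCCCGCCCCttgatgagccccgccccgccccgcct
Cxcr4: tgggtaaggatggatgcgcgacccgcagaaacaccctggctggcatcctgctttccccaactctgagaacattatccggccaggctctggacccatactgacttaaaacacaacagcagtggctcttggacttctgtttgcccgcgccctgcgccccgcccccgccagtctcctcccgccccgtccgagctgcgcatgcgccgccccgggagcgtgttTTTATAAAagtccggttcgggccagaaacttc
The Cxcl13 window held GGGAGGGCCC, which matches on both strands, 63 to 54 bases before the start, and TATAAA 46 to 41 bases before it. Its GC content was 42.0%, against 64.4% for Cxcl12, 61.2% for Cxcr4 and a median of 52.4% over 32817 windows of the same length. The Cxcl12 window held GGCCCGCCCC, a match on the opposite strand 36 to 27 bases before the start, and no TATAAA. The Cxcr4 window held no NF-kB form, and TATAAA 30 to 25 bases before the start, overlapping a match on the opposite strand. The NF-kB form was in the windows of 6 of the 8 matched genes and the TATAAA form in those of 2, while 45.8% and 12.4% of all windows held them. The first form is so loose that it occurs by letter composition in many windows, and a match is a description of the letters.

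Over all cells of a library, KPCA.B exceeded each of the other tumors in 5 of the 10 genes. A gene counted as higher or lower where its CPM was at least 2-fold above or below that of each other tumor and both intervals left out 1. By this rule 7.72% of 15206 genes were higher and 6.66% lower in KPCA.B. The 5 were Cxcl13, Cxcr5, Ccr7, Tnfrsf13c and Ltb, and 0 of the 10 were lower. The median log2 ratio of the 10 genes was 0.78 to KPCA.A and 0.70 to KPCA.C, beside -0.07 and 0.00 for all genes. A library's total mixes the cell types it holds with the level in each type, so the same genes are followed below class by class.

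**Figure D1:**
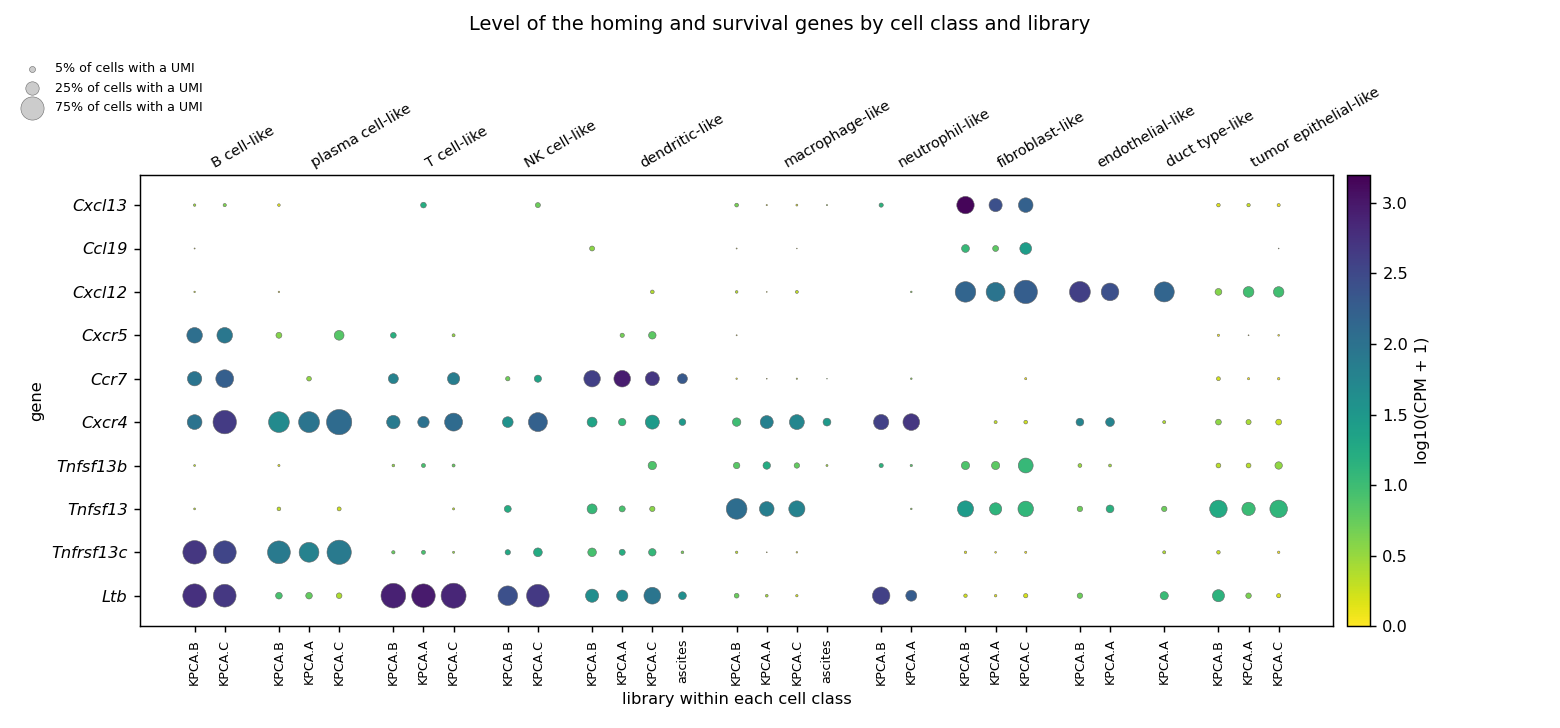
Level of the 10 genes in each cell class of each library with at least 20 cells. Colour is log10(CPM + 1) and dot size the percent of cells with a UMI of the gene. Cxcl13 is brightest in fibroblast-like cells, Cxcr5 and Tnfrsf13c in B cell-like cells, and Ltb in T and B cell-like cells of each tumor shown.

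Cxcl13 (chr5:95956951-95961068, plus strand) was a gene of fibroblast-like cells in every tumor. These cells held 98.8% of its UMIs in KPCA.B, 97.8% in KPCA.A and 97.8% in KPCA.C. Its level in them was 1428 CPM (1383 to 1473) in KPCA.B, 265 CPM (251 to 279) in KPCA.A and 162 CPM (153 to 172) in KPCA.C, from 3926, 1335 and 1082 UMIs. Fibroblast-like cells of KPCA.B were thus 5.39-fold (5.07 to 5.74) above those of KPCA.A and 8.79-fold (8.21 to 9.41) above those of KPCA.C, and the intervals of the 3 levels do not overlap. Among 10783 genes tested in this class, 2.11% were higher and 3.39% lower in KPCA.B. Of the 10 genes, 5 had enough UMIs there, and Cxcl13 and Tnfsf13 were the 2 that were higher.

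The fibroblast-like cells with Cxcl13 were a minority of the class. A UMI of Cxcl13 was found in 42.2% of fibroblast-like cells of KPCA.B, 24.1% of those of KPCA.A and 29.7% of those of KPCA.C, at median depths of 20900, 21578 and 43396 UMIs. With each cell thinned to 1000 UMIs the shares were 24.8% (16.9 to 34.1%), 9.95% (6.34 to 14.7%) and 9.15% (5.09 to 14.9%). B cell-like cells, which should lack the gene, had a UMI in 0.853% of KPCA.B cells at a median depth of 3261 UMIs. Cells with at least 10 UMIs of Cxcl13 numbered 29 of 116 in KPCA.B (25%), 28 of 224 in KPCA.A (12.5%) and 13 of 155 in KPCA.C (8.39%). The highest count in a cell was 737 UMIs in KPCA.B, 163 in KPCA.A and 191 in KPCA.C.

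A few cells held most of the transcript. The 10 cells with most Cxcl13 carried 84.1% of the fibroblast-like UMIs in KPCA.B, 70.9% in KPCA.A and 86.3% in KPCA.C. Without those 10 cells of each library, the level was 267 CPM in KPCA.B, 81.0 CPM in KPCA.A and 23.8 CPM in KPCA.C, log2 ratios of 1.72 and 3.49 against 2.43 and 3.14 with them. The direction and the call within the class were thus not set by these cells, but over all cells Cxcl13 was no longer called without them. Nor was it called over all cells as a mean over cells or with cells thinned to 1000 UMIs, where the log2 ratio to KPCA.A was 0.97 and 0.81.

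**Figure D2:**
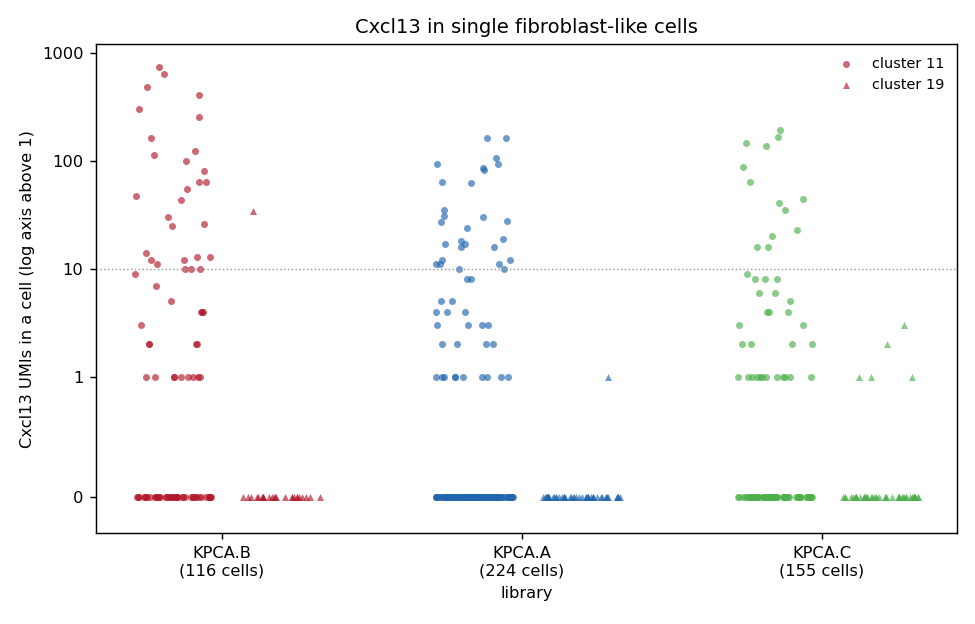
Cxcl13 UMIs in each fibroblast-like cell of the tumors. Each mark is a cell, with circles for cluster 11 and triangles for cluster 19, and the dotted line stands at 10 UMIs. The highest cell has 737 UMIs in KPCA.B, against 163 in KPCA.A and 191 in KPCA.C, and the cells past the line lie almost all in cluster 11.

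Within the class, Cxcl13 went with cluster 11, whose cells carried Wt1, Upk3b, Nkain4 and Lrrn4 next to collagen genes, and not with cluster 19, whose leading genes include Tagln, Col1a1 and Postn. Cluster 11 had 1587 CPM of Cxcl13 in KPCA.B, 330 CPM in KPCA.A and 223 CPM in KPCA.C, log2 ratios of 2.27 and 2.83. Cluster 19 had 114 CPM in KPCA.B, where 1 of 26 cells held all 34 UMIs, against 1.0 CPM in KPCA.A and 4.3 CPM in KPCA.C. Of the subclusters of cluster 11, one with 22 KPCA.B cells had 3677 CPM in KPCA.B, 500 CPM in KPCA.A and 330 CPM in KPCA.C. Its leading genes after Cxcl13 itself were Wnt4, Ptgis and Col6a5. Whether single cells with Cxcl13 also held mesothelial genes was not tested. Another, with 58 KPCA.B cells, had 1095 CPM in KPCA.B, while the other tumors had too few cells there for a level. This last subcluster was also where Upk3b (241 CPM), Lrrn4 (312 CPM) and Msln (107 CPM), genes of mesothelial cells, were high, and it held 58 of the 116 fibroblast-like cells of KPCA.B, 18 of 224 in KPCA.A and 17 of 155 in KPCA.C. The summed mesothelial list was 1067 CPM in fibroblast-like cells of KPCA.B, 557 CPM in KPCA.A and 508 CPM in KPCA.C, with 0 of its 9 genes at 0 in KPCA.B. Its part in the difference was not tested, beyond the values within cluster 11.

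Other cells added little Cxcl13. Macrophage-like cells had 3.52 CPM in KPCA.B, from 29 UMIs in 2.00% of cells, against 0.380 CPM in KPCA.A and 0.437 CPM in KPCA.C. For each Dcn UMI, a collagen-binding proteoglycan transcript of fibroblasts, KPCA.B macrophage-like cells held 1.07 UMIs of Cxcl13 (29 to 27), while the fibroblast-like cells of that tumor held 0.352. T cell-like cells, which in human tumors can secrete CXCL13, had 0 UMIs of it in 194 cells of KPCA.B and 0 in 154 cells of KPCA.C. The 44 T cell-like cells of KPCA.A had 15.3 CPM, under the 23.0 CPM that a count of 0 allows in them. The genes with the pattern most like that of Cxcl13, by Pearson r of log2(CPM + 5) over 21 profiles of a class in a library, were Upk3b (0.995), Col6a6 (0.994) and Wt1os (0.993). The profiles share libraries and depth, so this r, here and below, is a description only.

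Ccl19 (chr4:42754525-42756577, minus strand) was sparse and sat in other fibroblast-like cells than Cxcl13. Fibroblast-like cells held 29 of its 33 UMIs in KPCA.B, all 27 in KPCA.A and 172 of 177 in KPCA.C. Its level was 10.5 CPM (7.06 to 15.1) in KPCA.B, 5.36 CPM (3.53 to 7.79) in KPCA.A and 25.8 CPM (22.1 to 30.0) in KPCA.C, so KPCA.B lay between the other tumors and KPCA.C had the most. The ratio of KPCA.B was 1.97 (1.13 to 3.46) to KPCA.A and 0.408 (0.266 to 0.608) to KPCA.C. Neither direction held throughout: the log2 ratio to KPCA.C of -1.29 was 0.086 at Leiden resolution 2, and that to KPCA.A of 0.98 was -0.04 as a mean over cells. Cluster 19 had 70.5 CPM in KPCA.B, 20.1 CPM in KPCA.A and 90.4 CPM in KPCA.C, against 3.26, 1.73 and 1.04 CPM in cluster 11 of the same libraries. Cxcl13 and Ccl19 thus marked different fibroblast-like clusters in each tumor. The Ccl19 locus overlaps 4930578G10Rik on the opposite strand, and the symbol has 2 rows in the tables, of which the second had 0 UMIs. Its likeness list was Frzb (0.993), C1qtnf7 (0.988) and Nkd2, and Ccl21a, the other CCR7 ligand gene, had 0 UMIs in every library.

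Cxcl12 (chr6:117168535-117181367, plus strand) had its highest class level in endothelial-like or fibroblast-like cells of each tumor, and its total was not called between the tumors. Other classes carried it too. Tumor epithelial-like cells held 32 of its 656 UMIs in KPCA.B, 252 of 960 in KPCA.A and 501 of 1798 in KPCA.C. Duct type-like cells of KPCA.A had 148 CPM. Over all cells it was 17.7 CPM in KPCA.B, 21.7 CPM in KPCA.A and 20.6 CPM in KPCA.C, ratios of 0.815 and 0.856. The ratio to KPCA.C turned above 1 as a mean over cells and with cells thinned to 1000 UMIs, with log2 ratios of 0.74 and 0.60 against -0.22. Endothelial-like cells had 405 CPM (350 to 467) in 48 KPCA.B cells and 259 CPM (216 to 307) in 83 KPCA.A cells, and no ratio was formed from so few cells. Fibroblast-like cells had 145 CPM (131 to 160) in KPCA.B, 92.8 CPM (84.6 to 101.7) in KPCA.A and 180 CPM (170 to 190) in KPCA.C, ratios of 1.56 (1.36 to 1.79) and 0.806 (0.718 to 0.904). Each step is under 2-fold, and the one to KPCA.C turned with the processing: its log2 ratio of -0.31 was 0.92 at Leiden resolution 2, 0.11 in cluster 11 alone and 0.03 as a mean over cells. The step to KPCA.A was 0.00 with cells thinned to 1000 UMIs, against 0.64. Like Ccl19, Cxcl12 was at its highest among stroma in cluster 19, with 379 CPM in KPCA.B, 174 CPM in KPCA.A and 367 CPM in KPCA.C, against 116, 72.9 and 108 CPM in cluster 11. Lama4, a laminin gene of vessel walls, had the most similar pattern (r = 0.982), before Pcdhga6 (0.975) and Mxra7 (0.971).

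In tumor epithelial-like cells Cxcl12 was lower in KPCA.B. It had 2.88 CPM (1.97 to 4.06) from 32 UMIs in KPCA.B, 8.35 CPM (7.35 to 9.45) in KPCA.A and 8.22 CPM (7.51 to 8.97) in KPCA.C, ratios of 0.344 (0.231 to 0.499) and 0.350 (0.237 to 0.501). Among 13363 genes in this class, 5.68% were higher and 4.68% lower in KPCA.B. Of the 10 genes 5 were tested there, with Ltb higher and Cxcl12 lower. The tumor lines filled different clusters: cluster 2 held 198 KPCA.B cells, 542 KPCA.A cells and 98 KPCA.C cells, and clusters 8 and 14 held 579 and 265 of the 947 KPCA.C cells. Within cluster 2 the levels were 3.0 CPM in KPCA.B, 10.3 CPM in KPCA.A and 26.4 CPM in KPCA.C. Dcn in tumor epithelial-like cells was 57.5 CPM in KPCA.B, 4.47 CPM in KPCA.A and 216 CPM in KPCA.C, so transcripts of fibroblasts were present in these cells in unequal amounts. With cells that hold other classes' genes left out, the log2 ratios were -0.93 to KPCA.A and -0.35 to KPCA.C, against -1.54 and -1.51 with them, and the call was lost. As a mean over cells they were -0.98 and -0.97, just short of 2-fold.

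**Figure D3:**
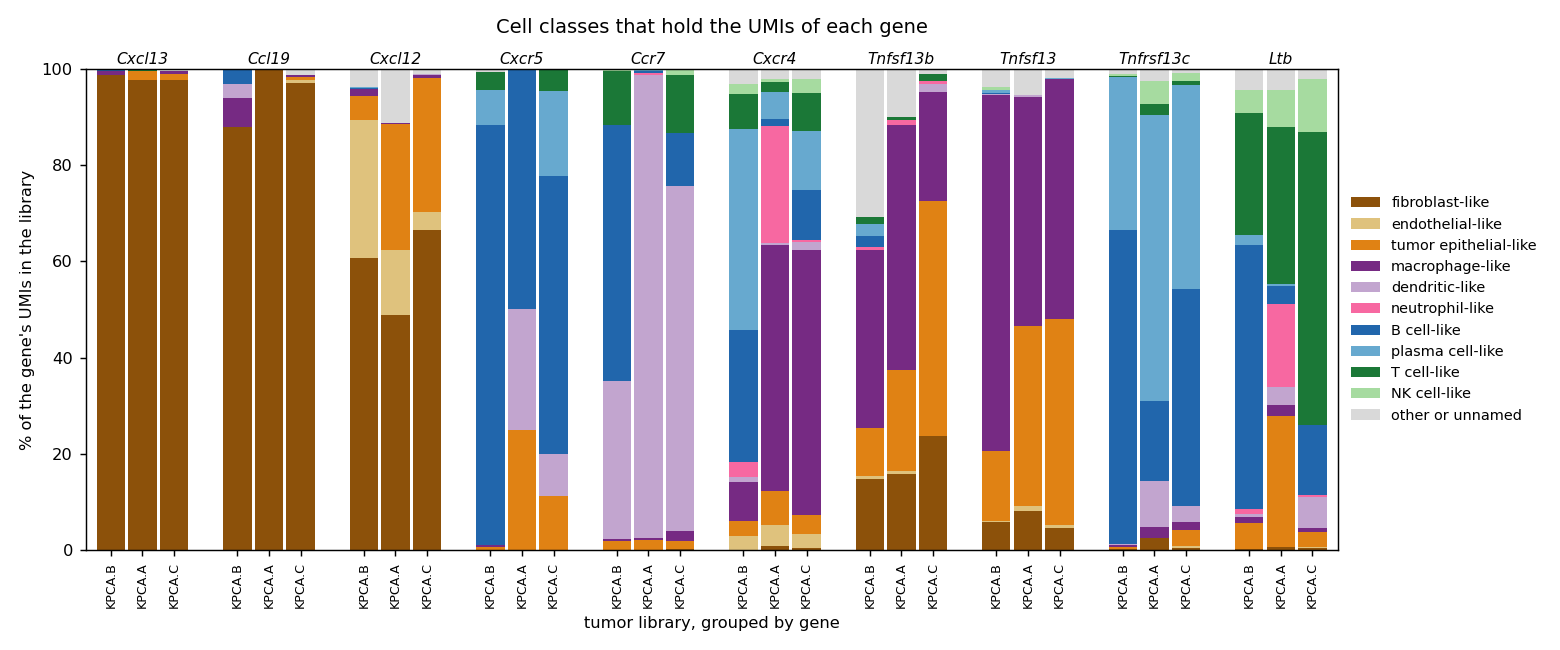
Share of each gene's UMIs that came from each cell class, in percent, in the 3 tumors. Fibroblast-like cells hold over 97% of Cxcl13 in every tumor, while the source of Ccr7 and Cxcr4 differs: B cell-like cells hold 53.3% of Ccr7 in KPCA.B, and dendritic-like cells 96.3% in KPCA.A and 71.8% in KPCA.C.

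Cxcr5 (chr9:44511787-44561877, minus strand), the receptor of CXCL13, followed the B cell-like cells. Over all cells it was 8.59 CPM in KPCA.B, 0.0903 CPM in KPCA.A and 0.516 CPM in KPCA.C, from 319, 4 and 45 UMIs, and 95.1-fold (36.8 to 351) and 16.6-fold (12.1 to 23.3) higher in KPCA.B. B cell-like cells held 87.5% of its UMIs in KPCA.B and 57.8% in KPCA.C. Within these cells the level was 108 CPM (95.8 to 122) in KPCA.B and 83.6 CPM (54.6 to 122) in KPCA.C, a ratio of 1.29 (0.865 to 2.02), so a difference per cell was not detectable at this depth. A UMI was found in 33.6% of B cell-like cells of KPCA.B and 33.8% of those of KPCA.C, at median depths of 3261 and 3852 UMIs, against 0.166% of macrophage-like cells of KPCA.B at 11822 UMIs. Class shares can also be taken as shares of a library's UMIs. The KPCA.B shares together with the KPCA.C class levels would give a ratio of 14 for Cxcr5. The KPCA.C shares together with the KPCA.B levels would give a ratio of 1.38. Most of the total thus moved with the class shares of UMIs. B cell-like cells held 6.95% of the UMIs of KPCA.B and 0.357% of those of KPCA.C.

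Cxcr5 outside B cell-like cells was low. T cell-like cells had 14.2 CPM (7.32 to 24.7) in KPCA.B, from 12 UMIs in 4.64% of cells, against 2.34 CPM (0.284 to 8.47) from 2 UMIs in KPCA.C. Plasma cell-like cells, which lose the receptor as they mature, had 2.87 CPM in KPCA.B, 0 UMIs in KPCA.A and 6.04 CPM in KPCA.C. The genes most like it were Ccr6 (r = 0.971), Fcrl1 (0.961) and Bfsp2 (0.957). The gene overlaps Bcl9l on the opposite strand.

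Ccr7 (chr11:99144196-99155077, minus strand), the receptor of CCL19 and CCL21, was 12.1 CPM in KPCA.B, 5.47 CPM in KPCA.A and 5.77 CPM in KPCA.C, 2.21-fold (1.88 to 2.59) and 2.09-fold (1.84 to 2.38) higher in KPCA.B. This call was lost with a stricter cell filter (log2 ratio 0.72 to KPCA.A) and as a mean over cells (0.91 to KPCA.C). The rise over all cells lay in who carried it. In KPCA.B, B cell-like cells held 53.3% of the UMIs and dendritic-like cells 32.8%, whereas dendritic-like cells held 96.3% in KPCA.A and 71.8% in KPCA.C. Per class, KPCA.B was not the highest: dendritic-like cells had 387 CPM in 29 KPCA.B cells, 880 CPM in 39 KPCA.A cells and 490 CPM in 51 KPCA.C cells. In each tumor, 10 dendritic-like cells carried over 95% of that class's Ccr7 (98.6% in KPCA.B, 95.7% in KPCA.A, 96.1% in KPCA.C), so few cells set the level of this class. B cell-like cells had 92.6 CPM (81.2 to 105) in KPCA.B and 177 CPM (133 to 230) in KPCA.C, a ratio of 0.524 (0.389 to 0.716) that stays just short of 2-fold. T cell-like cells had 59.0 CPM in KPCA.B against 71.5 CPM in KPCA.C, a ratio of 0.825 (0.556 to 1.22). H2-Oa (r = 0.933), Btla (0.916) and P2ry10 (0.894) had the most similar pattern.

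**Figure D4:**
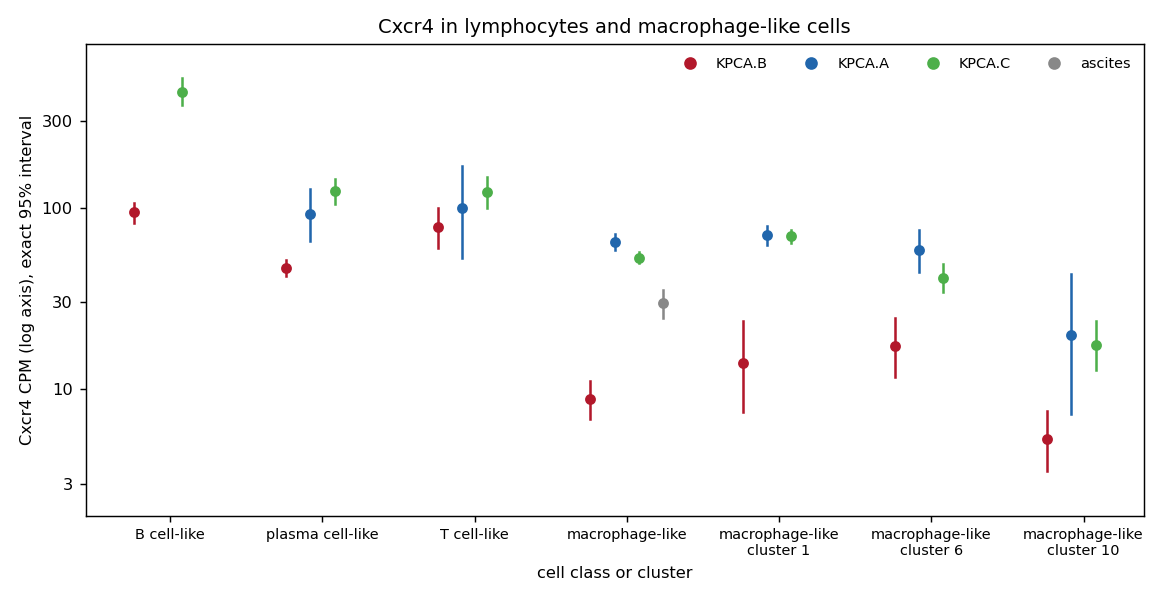
Cxcr4 level in CPM on a log axis, with the 95% counting interval, in B cell-like, plasma cell-like, T cell-like and macrophage-like cells and in macrophage-like clusters 1, 6 and 10, for libraries with at least 20 cells. KPCA.B lies lowest in B cell-like cells (94.2 CPM against 437 CPM in KPCA.C) and in macrophage-like cells (8.75 CPM against 64.7 CPM in KPCA.A and 53.0 CPM in KPCA.C).

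Cxcr4 (chr1:128588199-128592293, minus strand), the receptor of CXCL12, had a larger summed total in KPCA.B but lower levels in its B cell-like and macrophage-like cells. Over all cells KPCA.B had 23.9 CPM, KPCA.A 15.1 CPM and KPCA.C 15.1 CPM, ratios of 1.59 and 1.58 that are under the 2-fold limit. The total turned with the processing: with cells thinned to 1000 UMIs the log2 ratios were -0.61 and -0.17, against 0.67 and 0.66, and as a mean over cells that to KPCA.A was -0.51. The class shares of KPCA.B with the levels of KPCA.A would give a ratio of 3.85, and with those of KPCA.C a ratio of 5.08, while the KPCA.B levels with the other tumors' shares would give 0.505 and 0.389. These shares are of UMIs, not of cells. More of the KPCA.B UMIs thus lay in classes that carry Cxcr4, while its levels within classes summed to less. The 2 kinds of share can differ. Macrophage-like cells were 23.7% of cells in KPCA.B, 31.9% in KPCA.A and 37.1% in KPCA.C, but 22.2%, 11.9% and 15.8% of UMIs. B cell-like shares were higher in KPCA.B by either count. In KPCA.B plasma cell-like cells held 41.8% of the UMIs and macrophage-like cells 8.1%, while macrophage-like cells held 51.1% in KPCA.A and 55.2% in KPCA.C.

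B cell-like cells of KPCA.B had lower Cxcr4 than those of KPCA.C. The level was 94.2 CPM (82.7 to 107) in KPCA.B and 437 CPM (367 to 517) in KPCA.C, from 243 and 136 UMIs, a ratio of 0.215 (0.174 to 0.268). A UMI was found in 30.4% of the KPCA.B cells and 76.5% of the KPCA.C cells, and with cells thinned to 1000 UMIs in 13.3% (10.6 to 16.3%) and 32.4% (21.5 to 44.8%). Fibroblast-like cells, which should lack the gene, had a UMI in 0% of 116 KPCA.B cells and 1.94% of KPCA.C cells. The 15 B cell-like cells of KPCA.A held 10 UMIs, too few for a level. Of 6275 genes tested in B cell-like cells, 3.95% were higher and 2.36% lower in KPCA.B when set against KPCA.C, and of the 5 of the 10 genes that were tested Cxcr4 alone was called. KPCA.C B cell-like cells also held more macrophage transcripts, 868 CPM of the macrophage list against 360 CPM in KPCA.B, and their part was not tested.

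Macrophage-like cells of KPCA.B had lower Cxcr4 as well. The level was 8.75 CPM (6.84 to 11) in KPCA.B, 64.7 CPM (58.0 to 72.0) in KPCA.A and 53.0 CPM (49.3 to 57.0) in KPCA.C, ratios of 0.135 (0.103 to 0.175) and 0.165 (0.128 to 0.210). Of 10765 genes in this class, 3.8% were higher and 4.45% lower in KPCA.B. The 4 tested genes of the 10 gave Cxcr4 as lower and Ltb as higher, the second from 36 UMIs in KPCA.B and 9 in each other tumor, which reach the limit of 50 over the 3 tumors together but not within either ratio. The tumors filled different macrophage-like clusters: cluster 10, led by Retnla, Rnase2a and Chil3, held 337 of the 601 cells of KPCA.B, 37 of 826 in KPCA.A and 99 of 1120 in KPCA.C, and cluster 1, with Mmp12 and Ccl24, held 58, 482 and 591 cells. The direction was the same inside clusters 1 and 6 against both tumors, and inside cluster 10 against KPCA.C. Cluster 1 had 13.9 CPM in KPCA.B, 70.5 CPM in KPCA.A and 69.5 CPM in KPCA.C, cluster 6, with monocyte genes such as Ccr2, had 17.3, 58.2 and 41.0 CPM, and cluster 10 had 5.3 CPM in KPCA.B against 17.6 CPM in KPCA.C. Without cluster 10 the log2 ratios were -2.10 and -1.95, against -2.89 and -2.60 with it.

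Plasma cell-like, T cell-like, NK cell-like and neutrophil-like cells also had their lowest Cxcr4 value in KPCA.B, but none of these classes had the cells in all 3 tumors that a ratio to both needs. Plasma cell-like cells had 46.5 CPM (41.9 to 51.4) in KPCA.B, 92.1 CPM (65.2 to 126) in 33 KPCA.A cells and 123 CPM (105 to 143) in 45 KPCA.C cells. The tumors filled different plasma cell-like subclusters. Subcluster 13.3 held 27 of the KPCA.C cells, 6 of the KPCA.A cells and 1 of the 306 KPCA.B cells. The part of the subclusters, and of immunoglobulin transcripts in the CPM of these cells, was not tested. T cell-like cells had 77.9 CPM in KPCA.B, 99.5 CPM in 44 KPCA.A cells and 122 CPM in KPCA.C, a ratio of 0.639 (0.462 to 0.878) to KPCA.C. NK cell-like cells had 36.4 CPM in KPCA.B against 164 CPM in 28 KPCA.C cells. Neutrophil-like cells, where Cxcr4 rises with age of the cell, had 375 CPM in 40 KPCA.B cells and 488 CPM in 256 KPCA.A cells, and these intervals overlap. Dendritic-like cells did not follow, with 21.1 CPM in KPCA.B, 11 CPM in KPCA.A and 28.5 CPM in KPCA.C, and tumor epithelial-like cells had 2.52 CPM in KPCA.B, 1.59 CPM in KPCA.A and 0.836 CPM in KPCA.C. Arhgap25 (r = 0.903), Itsn2 (0.875) and Ssh2 (0.868) had the most similar pattern. Ackr3, the scavenging receptor of CXCL12, was 5.90 CPM over all cells in KPCA.B, 25.3 CPM in KPCA.A and 23.2 CPM in KPCA.C, and was lower in KPCA.B by the same rule, with ratios of 0.234 (0.201 to 0.270) and 0.254 (0.22 to 0.292).

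Single B cell-like cells mostly carried at least 1 of the 3 receptors at this depth. A UMI of Cxcr5, Ccr7 or Cxcr4 was found in 391 of 586 KPCA.B cells (66.7%) and 61 of 68 KPCA.C cells (89.7%). Cxcr5 and Ccr7 were found together in 8.70% of KPCA.B cells, beside 9.64% if they were independent, and Cxcr5 and Cxcr4 in 9.90% beside 10.2%. In KPCA.C Cxcr5 and Ccr7 were found together in 13.2% of 68 cells, beside 14.9% if independent, and Cxcr5 and Cxcr4 in 30.9% beside 25.9%. The follicular B cell list summed to 2351 CPM in KPCA.B against 2021 CPM in KPCA.C, the B-1 list to 232 and 225 CPM, and the germinal centre list to 186 and 74 CPM, with 0 of 8 and 3 of 8 of its genes at 0.

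Tnfsf13b, the gene of BAFF (chr8:10006467-10039072, plus strand), did not follow the B cells. Over all cells it was 3.50 CPM (2.92 to 4.16) in KPCA.B, 3.86 CPM (3.31 to 4.49) in KPCA.A and 3.40 CPM (3.02 to 3.81) in KPCA.C, ratios of 0.906 (0.716 to 1.15) and 1.03 (0.832 to 1.27). As a mean over cells the log2 ratio to KPCA.C was -0.47, against 0.04. In macrophage-like cells it was 5.83 CPM (4.30 to 7.73) in KPCA.B, 16.5 CPM (13.2 to 20.4) in KPCA.A and 4.88 CPM (3.78 to 6.20) in KPCA.C, so KPCA.A stood out. Within cluster 1 the KPCA.B level was 20.4 CPM from 19 UMIs, close to 17.6 CPM in KPCA.A and above 6.7 CPM in KPCA.C, whereas cluster 10 of KPCA.B had 3.5 CPM. An unnamed cluster with high MHC class II genes, led by Mmp12, Ccl17 and Mgl2, had 35.7 CPM in 42 KPCA.B cells from 38 UMIs and 25.7 CPM in 31 KPCA.A cells. Fibroblast-like cells had 6.91 CPM in KPCA.B, 5.36 CPM in KPCA.A and 10.5 CPM in KPCA.C, and cluster 19 had 47.0, 15.1 and 15.7 CPM. B cell-like cells had a UMI in 0.512% of KPCA.B cells, against 5.82% of macrophage-like cells. Bach1 (r = 0.831), Dse (0.816) and Cxcl9 (0.810) had the most similar pattern. The locus overlaps Gm44789.

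Tnfsf13, the gene of APRIL (chr11:69682846-69685784, minus strand), had its highest class level in macrophage-like cells of each tumor. It was high in the macrophages that KPCA.B held most of. Over all cells it was 35.1 CPM in KPCA.B, 17.1 CPM in KPCA.A and 19.1 CPM in KPCA.C, ratios of 2.06 (1.88 to 2.25) and 1.83 (1.7 to 1.97), so the second was short of 2-fold and the gene was not called. Macrophage-like cells held 74.1% of its UMIs in KPCA.B, 47.8% in KPCA.A and 49.8% in KPCA.C, with levels of 117 CPM (110 to 125), 68.5 CPM (61.6 to 76.0) and 60.5 CPM (56.5 to 64.8). The ratios there were 1.71 (1.51 to 1.94) and 1.94 (1.76 to 2.13). Tumor epithelial-like cells held 189 of the 1302 Tnfsf13 UMIs in KPCA.B, 283 of 755 in KPCA.A and 716 of 1668 in KPCA.C. A UMI was found in 59.6% of KPCA.B, 29.8% of KPCA.A and 36.3% of KPCA.C macrophage-like cells, at median depths of 11822, 5556 and 10434 UMIs, against 0.512% of KPCA.B B cell-like cells.

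Within clusters 1 and 10 the tumors lay closer together than in the class, but in cluster 6 KPCA.B and KPCA.C did not. Cluster 10 had 140 CPM in KPCA.B, 149 CPM in KPCA.A and 122 CPM in KPCA.C, cluster 1 had 68.6, 62.2 and 51.2 CPM, and cluster 6 had 72.0, 67.6 and 34.6 CPM. Without cluster 10 the log2 ratio in macrophage-like cells was 0.18 (-0.08 to 0.44) to KPCA.A and 0.62 to KPCA.C. Cluster 10 held 337 of 601 macrophage-like cells in KPCA.B, which had the highest class level. It held 37 of 826 in KPCA.A and 99 of 1120 in KPCA.C, which had the lowest. Its part in the class level was not tested beyond these values. Snx6 (r = 0.872), Batf2 (0.840) and Gm10134 (0.837) had the most similar pattern.

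In fibroblast-like cells Tnfsf13 was higher in KPCA.B, 27.6 CPM (21.8 to 34.6) against 12.1 CPM (9.26 to 15.5) in KPCA.A and 11.6 CPM (9.12 to 14.4) in KPCA.C, ratios of 2.28 (1.61 to 3.25) and 2.39 (1.72 to 3.33). Fibroblast-like cells of KPCA.B also held more macrophage transcripts, 1500 CPM of the macrophage list against 494 CPM in KPCA.A and 874 CPM in KPCA.C. For each UMI of C1qa, a complement gene of macrophages, they held 0.411 UMIs of Tnfsf13 in KPCA.B, 0.718 in KPCA.A and 0.395 in KPCA.C, while macrophage-like cells held 0.0330, 0.0236 and 0.0251. The part of macrophage transcripts in the Tnfsf13 of fibroblast-like cells was not tested. With cells that hold other classes' genes left out, the log2 ratios in fibroblast-like cells were 1.42 and 1.10, and within cluster 11 alone they were 0.96 and 1.19, so the call was lost there against KPCA.A. At Leiden resolution 2 the log2 ratio to KPCA.C was 0.76, again short of the limit. Tumor epithelial-like cells had 17.0 CPM in KPCA.B, 9.38 CPM in KPCA.A and 11.7 CPM in KPCA.C, ratios of 1.81 and 1.45.

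Tnfrsf13c, the gene of the BAFF receptor (chr15:82221743-82224369, minus strand), followed the B lineage. Over all cells it was 51.9 CPM in KPCA.B, 0.949 CPM in KPCA.A and 2.79 CPM in KPCA.C, from 1928, 42 and 243 UMIs, 54.7-fold (40.3 to 76.2) and 18.6-fold (16.3 to 21.4) higher in KPCA.B. In B cell-like cells it was 489 CPM (462 to 516) in KPCA.B and 353 CPM (291 to 426) in KPCA.C, a ratio of 1.38 (1.14 to 1.7). A UMI was found in 77.0% of the KPCA.B and 73.5% of the KPCA.C cells, and in 37.9% and 36.8% of cells thinned to 1000 UMIs, against 0.832% of KPCA.B macrophage-like cells. The level in B cell-like cells thus differed beyond counting error, but by less than 2-fold. Cd79b (r = 0.955), Ms4a1 (0.952) and Cd79a (0.947), parts of the B cell receptor and a B cell surface protein, had the most similar pattern.

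Plasma cell-like cells also carried Tnfrsf13c. The level was 76.4 CPM (70.5 to 82.7) in KPCA.B, 60.6 CPM (39.2 to 89.4) in KPCA.A and 77.8 CPM (63.5 to 94.3) in KPCA.C, intervals that overlap, and a UMI was found in 72.2%, 54.5% and 82.2% of cells. Plasma cell markers, largely immunoglobulin, made up 263944 CPM of these cells in KPCA.B, which lowers the CPM of every other gene there. B cell transcripts are present in these cells, and their part in this level was not tested. There were 612 UMIs of Tnfrsf13c to 416 of Ms4a1 in KPCA.B plasma cell-like cells, a ratio of 1.47, against 0.228 in B cell-like cells. The other receptors of the family differed in their carriers. Tnfrsf17 (BCMA), which binds APRIL on plasma cells, was 18.6 CPM over all cells in KPCA.B, 0.384 CPM in KPCA.A and 0.275 CPM in KPCA.C, and plasma cell-like cells held 98.4% of it in KPCA.B. Tnfrsf13b (TACI), which binds both ligands, was 64.6 CPM in KPCA.B, 10.3 CPM in KPCA.A and 13.8 CPM in KPCA.C, with 53.4% of the KPCA.B UMIs in plasma cell-like cells. Its KPCA.B level was higher in B cell-like cells, 220 CPM against 160 CPM in plasma cell-like cells. Macrophage-like cells of KPCA.B had 44.1 CPM.

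**Figure D5:**
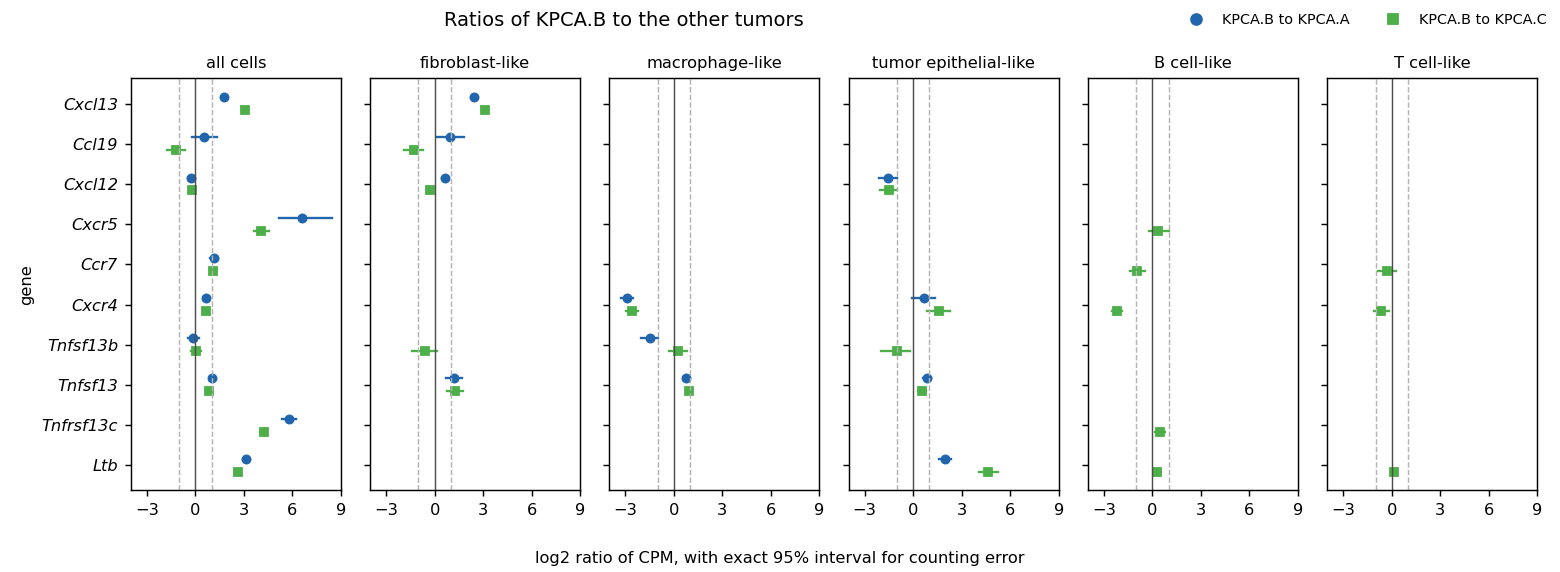
log2 ratio of CPM in KPCA.B to KPCA.A and to KPCA.C for each of the 10 genes that had at least 50 UMIs in the 2 tumors of a ratio, over all cells and in 5 classes, with 95% counting intervals. Dashed lines stand at a 2-fold difference. Cxcl13 in fibroblast-like cells lies past the upper line for both tumors, and Cxcr4 in macrophage-like and B cell-like cells past the lower line.

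Ltb (chr17:35194439-35196320, plus strand), whose protein forms the membrane lymphotoxin that engages Ltbr, was 72.6 CPM over all cells in KPCA.B, 8.45 CPM in KPCA.A and 11.7 CPM in KPCA.C, 8.60-fold (7.71 to 9.61) and 6.22-fold (5.79 to 6.70) higher in KPCA.B. B cell-like cells held 54.8% of its UMIs in KPCA.B and T cell-like cells 25.4%, while T cell-like cells led in KPCA.A (32.6%) and KPCA.C (61%). Per class the tumors were close. T cell-like cells had 809 CPM (749 to 872) in KPCA.B, 934 CPM (776 to 1115) in 44 KPCA.A cells and 727 CPM (671 to 786) in KPCA.C, a ratio of 1.11 (0.997 to 1.24) to KPCA.C. B cell-like cells had 573 CPM (544 to 603) in KPCA.B and 476 CPM (402 to 559) in KPCA.C, a ratio of 1.21 (1.02 to 1.44). Of 5186 genes tested in T cell-like cells 2.55% were higher and 3.43% lower in KPCA.B when set against KPCA.C, and of the 3 of the 10 genes tested there, Ltb, Ccr7 and Cxcr4, 0 were called. Tbc1d10c (r = 0.955), Acap1 (0.946) and Rhof (0.938) had the most similar pattern. A small unnamed KPCA.B cluster of 24 cells with Gata3 and Il1rl1 had 599 CPM of Ltb.

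Tumor epithelial-like cells of KPCA.B also had higher Ltb. The level was 13 CPM (11 to 15.3) in KPCA.B, 3.38 CPM (2.76 to 4.10) in KPCA.A and 0.525 CPM (0.359 to 0.741) in KPCA.C, from 145, 102 and 32 UMIs, ratios of 3.86 (2.97 to 5.02) and 24.8 (16.8 to 37.7). A UMI was found in 20.4% of KPCA.B, 4.26% of KPCA.A and 2.43% of KPCA.C cells, at median depths of 34354, 38327 and 60135 UMIs, against 1.72% of KPCA.B fibroblast-like cells at 20900 UMIs. Cluster 16, with the epithelial genes Wfdc18, Epcam, Lcn2 and Krt7, had 21.7 CPM in 69 KPCA.B cells and 12.9 CPM in 160 KPCA.A cells, where it held 98 of the 102 UMIs. Cluster 2 had 10.4 CPM in KPCA.B from 81 UMIs and 0.8 CPM in KPCA.C from 5 UMIs. In KPCA.B, both main tumor clusters thus carried Ltb, and in KPCA.A nearly all of it lay in cluster 16. Without cluster 16 the log2 ratios were 5.82 to KPCA.A and 4.25 to KPCA.C, against 1.95 and 4.63 with it.

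Lymphocyte transcripts in these tumor epithelial-like cells were also most abundant in KPCA.B. The B cell list summed to 195 CPM in KPCA.B, 22 CPM in KPCA.A and 84 CPM in KPCA.C, with 0 of 16, 3 of 16 and 0 of 16 genes at 0, and the T cell list to 28, 19 and 19 CPM, with 1, 2 and 0 of 15 genes at 0. For each Cd79a UMI, KPCA.B tumor epithelial-like cells held 2.50 UMIs of Ltb (145 to 58), against 0.254 in B cell-like cells of that tumor. They held 4 UMIs of Cd3e. The part of B cell, T cell or other transcripts in the Ltb of these cells was not tested. With cells thinned to 1000 UMIs, Ltb was not called in this class. Lta, the gene of the lymphotoxin subunit that pairs with LTB, was higher in KPCA.B over all cells, 5.01 CPM against 1.45 CPM in KPCA.A and 0.344 CPM in KPCA.C. Tumor epithelial-like cells held 88 of its 186 UMIs in KPCA.B (47.3%), at 7.91 CPM against 1.89 CPM in KPCA.A and 0.213 CPM in KPCA.C, and B cell-like cells another 81. Macrophage-like cells had 4.37 CPM of Ltb in KPCA.B, from 36 UMIs, 1.71 CPM in KPCA.A and 0.656 CPM in KPCA.C, from 9 UMIs each, and their B cell list summed to 702, 98 and 105 CPM. Ltb in these cells was no longer called with cells that hold other classes' genes left out, nor without cluster 10.

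The receiving side of lymphotoxin was spread over stroma and tumor cells alike. Ltbr was 42.3 CPM over all cells in KPCA.B, 55.7 CPM in KPCA.A and 44.1 CPM in KPCA.C, ratios of 0.758 (0.711 to 0.808) and 0.958 (0.903 to 1.02). Fibroblast-like cells had 61.8 CPM in KPCA.B, 53.6 CPM in KPCA.A and 44.0 CPM in KPCA.C, while Cxcl13 differed 5.39-fold and 8.79-fold in the same cells. The lymphoid stroma list, 9 genes of lymphoid organ stroma such as Pdpn, Icam1, Vcam1 and Tnfsf11, summed to 667 CPM in fibroblast-like cells of KPCA.B, 787 CPM in KPCA.A and 829 CPM in KPCA.C. The list also holds Il33 and Grem1, and its genes Il33 and Tnfsf11 were lower in fibroblast-like cells of KPCA.B by the same rule. Whether lymphotoxin or lymphoid stroma had a part in the Cxcl13 difference was not tested.

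Of the wider pathway, 69 genes in 8 lists were followed over all cells. Of the receptor list, 10 of 12 genes were tested, with a median log2 ratio of 1.04 to KPCA.A and 0.87 to KPCA.C. In KPCA.B 7 were higher (Ccr6, Ccr9, Ccr10, Gpr183, S1pr1, S1pr4 and Cxcr3), beside 7.72% of all genes. Ackr3 was lower, beside 6.66% of all genes. Ccr6, a receptor of memory and mature B cells, was 13 CPM in KPCA.B, 0.248 CPM in KPCA.A and 0.975 CPM in KPCA.C. In B cell-like cells it was 160 CPM in KPCA.B against 161 CPM in KPCA.C, so its total went with the share of B cell-like cells. The ligand list had 3 of 5 genes tested, Cxcl16, Ccl25 and Ccl20, with 0 called and medians of -0.34 and 0.04.

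The adhesion list for lymphocyte entry had 11 of 12 genes tested, with medians of 1.85 and 1.32. Of these, 7 were higher and 0 lower in KPCA.B, beside 7.72% and 6.66% of all genes. The higher genes include Icam2, Madcam1, Itga4, Itgb7, Itgal and Selplg. Itgal, the LFA-1 alpha chain, was 68.2 CPM in KPCA.B, 15.3 CPM in KPCA.A and 15.8 CPM in KPCA.C, and 41.1% of its KPCA.B UMIs lay in plasma cell-like cells. Madcam1, the gut and milky spot addressin that binds the alpha 4 beta 7 integrin, was 3.1 CPM in KPCA.B, 0.0678 CPM in KPCA.A and 0.0459 CPM in KPCA.C. Its KPCA.B UMIs came mostly from endothelial-like cells, 81 of 115, in 4.17% of 48 such cells, so very few cells set this value. The oxysterol list, whose enzymes make and remove the ligand of Gpr183, had 3 of 3 tested. Ch25h was lower in KPCA.B, beside 6.66% of all genes, at 1.89 CPM against 14.3 CPM in KPCA.A and 9.82 CPM in KPCA.C. Ch25h was lower in macrophage-like, fibroblast-like and tumor epithelial-like cells of KPCA.B too.

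The BAFF and APRIL list had 5 of 5 tested, with medians of 0.15 and -0.11. Tnfrsf13b and Tnfrsf17 were higher and Tnfrsf12a and Sdc1 lower in KPCA.B, beside 7.72% and 6.66% of all genes. The lymphotoxin and TNF list had 8 of 8 tested and 1 higher, Lta, with medians of 0.03 and 0.02. The list of non-canonical NF-kB and survival genes had 12 of 12 tested and 1 higher, Pim2, a survival kinase of B lineage cells, at 10.7 CPM in KPCA.B against 4.02 CPM in KPCA.A and 4.76 CPM in KPCA.C, with medians of 0.08 and 0.27. In these last lists the share of higher genes was near the 7.72% of all genes, so the counts say nothing particular of either. Of the help list, 10 of 12 were tested, with medians of -0.01 and -0.12. Cd40 and its ligand Cd40lg were higher and the cytokine genes Il6 and Il33 lower, again beside 7.72% and 6.66% of all genes. Cd40lg was 1.86 CPM in KPCA.B, 0.0678 CPM in KPCA.A and 0.230 CPM in KPCA.C, and T cell-like cells held 58.0% of it in KPCA.B. The remaining genes of the lists were not called, and the called genes without values were named after their values were seen.

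The ascites held almost no B lymphocytes and few of the stromal signals. Cxcl13 had 34 UMIs in 12 of 2853 cells, 4.86 CPM (3.37 to 6.79) over all cells against 107 CPM in KPCA.B, 30.8 CPM in KPCA.A and 12.7 CPM in KPCA.C. Cd79a had 8 UMIs in 5 of 2853 cells, and Ms4a1 and Cd3e had 0. Ccl19, Cxcl12 and Cxcr5 had 0 UMIs, which for each allows at most 0.429 CPM over all cells. Ltb had 12 UMIs, of which 11 lay in 94 dendritic-like cells (40.2 CPM), and Ccr7 had 73 UMIs, of which 57 lay in the same cells (208 CPM, 158 to 270).

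Macrophage-like cells, 1346 in the ascites, allowed a comparison with the tumors. Of 10944 genes, 5.3% were higher and 33.5% lower in the ascites than in all 3 tumors, so the background share of lower genes was large. Of the 4 genes of the 10 that were tested, Tnfsf13b and Tnfsf13 were lower. Tnfsf13b was 1.85 CPM from 8 UMIs in ascites macrophage-like cells, against 5.83 CPM in KPCA.B, 16.5 CPM in KPCA.A and 4.88 CPM in KPCA.C. Tnfsf13 had 0 UMIs there, but its locus is annotated otherwise in the ascites library, where Tnfsf13os, on the same locus, had 18.5 CPM over all barcodes against 2.37 CPM in KPCA.B, 0.751 CPM in KPCA.A and 1.34 CPM in KPCA.C, and the row Tnfsfm13 is listed only there. Annotation and biology cannot be told apart for Tnfsf13 in the ascites. Cxcr4 was 29.6 CPM (24.7 to 35.2) in ascites macrophage-like cells, above 8.75 CPM in KPCA.B and below 64.7 CPM in KPCA.A and 53.0 CPM in KPCA.C.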

How the data were processed

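Droplet 3' single-cell RNA was measured in 4 libraries, 1 per group. The authors' matrices are unnormalized UMI counts; per the file headers the tumors were counted with Cell Ranger 4.0.0 and the ascites with 3.0.2. The submitters' processing notes name version 3.1.0 and mm10. Other deposited tables list gene identifiers, symbols and barcodes. The labels give 1 chemistry for all libraries, but barcodes beginning AAACCC numbered 3 in KPCA.B, 9 in KPCA.A, 4 in KPCA.C and 0 in the ascites, and those beginning AAACCT 0 in each tumor and 5 in the ascites. The labels state 5000 cells for each tumor library and give no number for the ascites. The matrices held 3358 barcodes for KPCA.B, 5703 for KPCA.A, 4110 for KPCA.C and 3118 for the ascites, with 40054369, 58591493, 95130645 and 7420674 UMIs. Total UMIs set the precision of every interval.

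Barcodes below 300 genes or 500 UMIs, or above 15% mitochondrial UMIs, were left out. The automatic Scrublet threshold marked 31 of 11253 cells (0.275%) and had not worked, so the 254 highest scores (0.8% per 1000 barcodes) were removed and some doublets remain. Leiden clustering at resolution 1 (scanpy 1.11.5, leidenalg 0.10.2; 2000 variable genes, 30 components, 15 neighbours, seed 1) used all libraries without integration and left out the 10 genes and the pathway genes. A cluster was named for the class whose markers had the highest mean log2 fold over the median cluster. At least 3 of these markers had to reach 2-fold. The name was withheld where another class had more markers among the 10 leading genes. It was also withheld where leading markers were missing and depth was low or another class scored close. Naming limits and sub-clustering were set after the data were seen. Of 43 clusters 6 stayed unnamed. Summed UMIs of each class were scaled to CPM in each library over the 30406 genes that both annotations list. Levels have exact Poisson, shares exact Clopper-Pearson and ratios exact conditional intervals (scipy 1.17.1), all at 95%. A class level needed 20 cells and a ratio 50 cells in each library. A call needed 50 UMIs over all libraries compared, and a count of 0 allows 3 counts. The interval code was tested on simulated data. Gene coordinates come from GENCODE vM21 (GRCm38).

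The 10 genes, the pathway lists and the marker lists were chosen with earlier results of these data known. All 10 genes are named, with up to 3 genes of each pathway list, those with the largest ratio of KPCA.B to the nearer tumor, the partners Ccl21a, Tnfrsf13b, Tnfrsf17, Ltbr, Lta and Ackr3, and the 3 genes most like each of the 10 in pattern. Alternatives covered cell filters, doublets, clustering, scaling, call limits and thinning.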

Additional observations from a re-analysis of the deposited data

Results flagged for a closer look

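Signals outside the comparisons lay in the ascites library. Tnfsfm13, a row of the Tnfsf13 locus listed only in the ascites annotation, had 25 UMIs, 3.37 CPM over all ascites barcodes. Cluster 7, 621 cells of the ascites and 1 of KPCA.C, stayed unnamed because neutrophil markers outnumbered those of its class among its 10 leading genes. It had 13 UMIs of Cxcl13 (21.8 CPM) and 18 UMIs of Cxcr4 (30.1 CPM), the second close to the 29.6 CPM of ascites macrophage-like cells. Its median depth was 831 UMIs and its leading genes were Wfdc17, Wfdc21, Saa3, Prg4 and Car4.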

How the results depend on the processing

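No paired analysis was possible because each group had 1 library. Of 547 ratios recomputed under alternatives, 454 stayed within their 95% interval and the rest moved further. The sign changed in 16, of which 3 had intervals without 0 on both sides: Cxcl12 in fibroblast-like cells of KPCA.B to KPCA.C at Leiden resolution 2, and over all cells with thinning Cxcl12 to KPCA.C and Cxcr4 to KPCA.A. Of 32 single ratios past 2-fold 31 kept their sign in every alternative fixed at the start, and Ccl19 in fibroblast-like cells to KPCA.C, not called as a gene, had a log2 ratio of 0.086 at Leiden resolution 2. Alternatives named as added were chosen after the data were seen. The cause was not tested where none is named.

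The B cell-like share of KPCA.B stayed between 22.3 and 23.8%. Over all cells, genes higher in KPCA.B numbered 3 with the mean over cells, without Cxcl13 and Ccr7. In macrophage-like cells they numbered 2 with a 1.5-fold limit (Tnfsf13 added) or a minimum of 20 UMIs (Cxcl13 added), and 0 with a 3-fold limit, a stricter cell filter, more doublet scores removed, thinning, cells with other classes' genes left out, or without cluster 10 (added), so the Ltb call there rests on these choices. In fibroblast-like cells they numbered 1, Cxcl13, with a 3-fold limit, Leiden resolution 2, thinning, or cluster 11 alone (added). In tumor epithelial-like cells they numbered 2 with a minimum of 20 UMIs, the mean over cells or without cluster 16 (added), and 0 with thinning, which leaves few UMIs, and lower genes numbered 0 with a 3-fold limit, the mean over cells, thinning, or cells with other classes' genes left out. In B cell-like cells lower genes numbered 2, with Ccr7, at 1.5-fold or with a stricter cell filter, and in T cell-like cells 1, Cxcr4, at 1.5-fold. In ascites macrophage-like cells higher genes numbered 1, Ccr7, with a minimum of 20 UMIs, and lower genes 1, Tnfsf13, with a 3-fold limit, libraries clustered alone, median-of-ratios scaling or thinning. Clustering libraries alone left 48 fibroblast-like cells in KPCA.B, too few for a ratio, and cluster 19 alone had too few cells for a ratio. Depth limits Ccl19, Tnfsf13b and every lymphocyte value of KPCA.A and the ascites.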
